A study of Homo sapiens with 6 samples.

Results

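The genes of cholesterol and fatty acid synthesis were followed in 3 human uveal melanoma cell lines, named Mel 290, Mel 270 and 92.1, grown with activated T cells or alone. The set was given as 32 gene symbols, and a gene was measured if a probe set of the array carried its symbol and no other. That held for 30 of the 32 genes, out of 18417 genes with such a probe set, and FDFT1 and HSD17B7 have no expression value here. All 30 lay above the filter on low values, a mean log2 signal of 5.80 over the 6 arrays. In the co-cultures, T cells of healthy volunteers activated with beads against CD3 and CD28 sat in an insert with 0.4 µm pores above the melanoma cells, at 1500000 T cells per well in 3 ml. The cells grown alone were the controls, and both groups were kept for 64 h in serum-free X-VIVO 15 medium. There was 1 array for each line and culture, so each group had 3 arrays, 1 of each line. Per the labels' protocols, 80000 cells of 92.1 and 100000 of each other line were plated, and at the medium change Mel 290 had reached confluence while the other lines had not.

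Cholesterol is built from acetyl-CoA through the mevalonate pathway, which ends in farnesyl diphosphate. Squalene is then made from it, closed into a ring as lanosterol and trimmed to cholesterol. Fatty acids share the acetyl-CoA pool and are made by acetyl-CoA carboxylase and fatty acid synthase, then lengthened and desaturated. Both pathways are under the transcription factors SREBP1 and SREBP2, encoded by SREBF1 and SREBF2, which SCAP escorts to the Golgi for cleavage when sterols are low and INSIG proteins hold back in the endoplasmic reticulum when sterols are high. SREBP2 acts mostly on the sterol genes and SREBP1c mostly on the fatty acid genes.

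The arrays of a line resembled each other, with r from 0.962 to 0.980 between its co-culture and its culture alone across probe sets. The co-cultures answered the T cell factors in all lines: CXCL10, a chemokine induced by interferon-gamma, rose, with a log2 difference of 9.11 ± 0.83 over the 3 lines (limma adjusted p = 0.0034). The RNA came from whole wells, and fewer cells of a type cannot be told apart from less RNA per cell. Of 10 T cell markers measured, 6 were below the filter level on every array, CD3D, CD3E and CD3G among them. CD7, LCK, GZMB and NKG7 were above it on every array, at mean log2 levels of 8.30, 6.28, 6.66 and 7.11. CD7 (0.11 on average) and CD3E (0.21) were higher in co-culture in all 3 lines. None of the list was lower in all 3. GZMB was higher in Mel 270 (0.40) and Mel 290 (0.41) and lower in 92.1 (-0.14). The summed log2 level of the list was 55.9 to 59.1 in co-culture and 56.4 to 58.6 alone. Of the melanocyte markers, TYRP1, a pigment enzyme, had 13.07, 12.66 and 5.02 in the co-cultures of 92.1, Mel 270 and Mel 290, against 13.19, 13.05 and 5.19 in the same lines alone. Mel 290 thus lay below the filter level for this marker, as it did for MLANA and TYR, while its label is the same choroidal uveal melanoma. It lay above that level in co-culture and alone for MITF (8.16 and 8.96), SOX10 (7.25 and 6.84) and PMEL (5.97 and 6.10). For SLC45A2 it was above the level alone (6.66) and below it in co-culture (5.27).

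Fatty acid synthesis genes had the largest mean differences between co-culture and growth alone. FASN, the fatty acid synthase that makes palmitate, had log2 signals of 9.38, 9.54 and 8.89 in the co-cultures of 92.1, Mel 270 and Mel 290, against 10.91, 10.40 and 9.82 in the same lines alone. Every co-culture was below every culture alone. The mean difference was -1.11 ± 0.37 (SD, n = 3 lines), a ratio of 0.465, with a 95% confidence interval of -1.56 to -0.65. ACACA encodes acetyl-CoA carboxylase 1, which makes the malonyl-CoA that FASN uses, and it had 8.73, 8.17 and 8.30 in the co-cultures against 9.60, 8.85 and 9.65 alone. These groups did not overlap either, and the mean difference was -0.97 ± 0.34, a ratio of 0.511, with an interval of -1.41 to -0.53. ELOVL6, which lengthens palmitate, had 10.15, 8.03 and 9.57 in the co-cultures against 10.92, 8.31 and 10.65 alone, a mean difference of -0.71 ± 0.40. It was lower in 3 of 3 lines, but the groups overlapped, with Mel 270 low in both cultures. None of these 3 passed the threshold of 0.05 in limma over the 13808 genes tested, with adjusted p = 0.0781 for FASN, 0.0852 for ACACA and 0.138 for ELOVL6 (unadjusted p = 0.00149, 0.00227 and 0.0124).

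**Figure D1:**
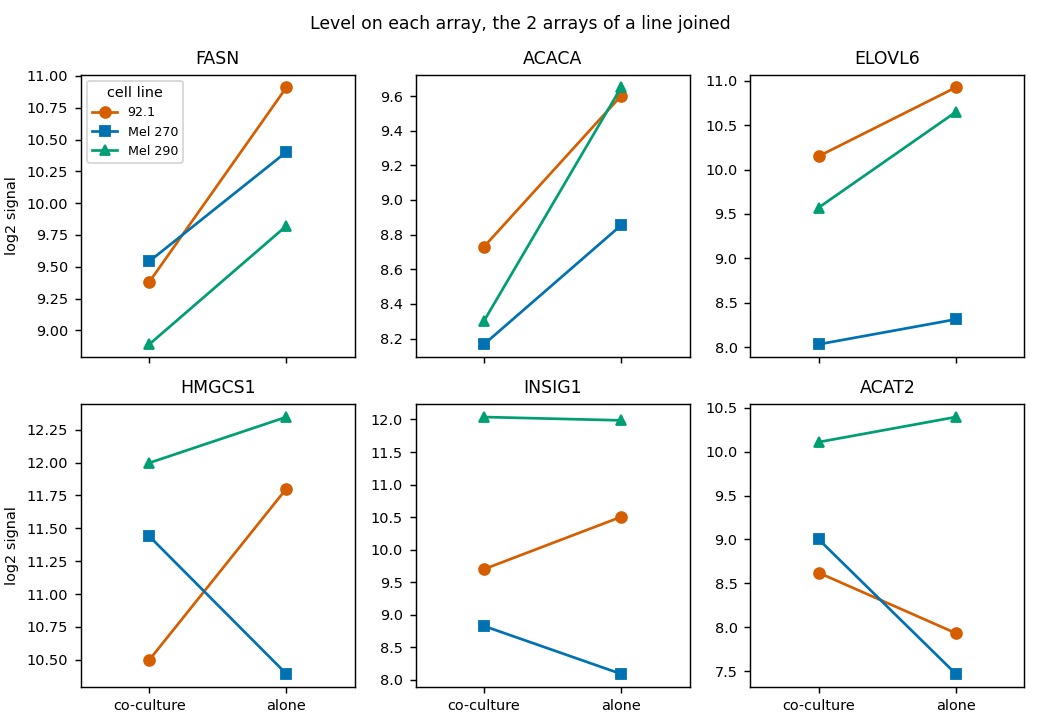
Log2 signal of 6 genes on each of the 6 arrays, co-culture on the left and growth alone on the right of each panel, with the 2 arrays of a line joined; the vertical axes differ between panels. FASN and ACACA were lower in co-culture in all 3 lines, whereas the lines of HMGCS1 cross, with 92.1 lower (-1.30) and Mel 270 higher (1.05) in co-culture.

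Over the whole set, 0 of 30 genes passed the adjusted threshold in limma, where 0.449% of all tested genes were called, 0.0362% lower and 0.413% higher in co-culture. At an unadjusted p under 0.05, 5 of the 30 were lower and 1 was higher, against 13% and 7.02% of all tested genes. The 5 lower genes were FASN, ACACA, ELOVL6 and the mevalonate kinases MVK and PMVK, and the higher one was the sterol carrier STARD4. The groups did not overlap for FASN, ACACA and MVK, all lower in co-culture, next to 5.96% of all tested genes that did so in that direction. No member was higher in co-culture without overlap, against 4.03% of all tested genes. The median of the 30 mean differences was -0.16, against -0.04 over all tested genes. All 3 lines were lower in co-culture for 8 of the 30, and 1 was higher in all 3, against 25.5% and 16.2% of all tested genes.

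The other fatty acid genes shared a direction in Mel 290 only. All 8 genes of the fatty acid arm were lower there, with a median of -0.54. In 92.1, 6 were lower and 2 higher (median -0.82), and in Mel 270, 5 were lower and 3 higher (median -0.21). Of all tested genes, 49.2% were lower in Mel 290, 60.1% in 92.1 and 57.3% in Mel 270. ACLY, which splits citrate to yield cytosolic acetyl-CoA, was lower in 3 of 3 lines at -0.42 ± 0.39 (adjusted p = 0.296), mostly in 92.1 (-0.86). ACSS2, which makes acetyl-CoA from acetate, had 8.91, 9.74 and 9.55 in the co-cultures against 9.94, 9.38 and 9.95 alone. It was lower in 92.1 (-1.03) and Mel 290 (-0.40) and higher in Mel 270 (0.36). SCD, the stearoyl-CoA desaturase, had a signal of 12.64, 12.81 and 12.22 in the co-cultures of 92.1, Mel 270 and Mel 290, against 12.50, 12.81 and 12.80 alone. Mel 290 was lower (-0.58) and the other lines differed little (0.15 in 92.1 and 0.00 in Mel 270), and the mean difference of -0.14 ± 0.39 had an interval of -0.61 to 0.32. FADS1 and FADS2, the delta-5 and delta-6 desaturases of polyunsaturated fatty acids, are neighbouring genes. FADS1 had 10.75, 10.54 and 11.18 in the co-cultures against 10.86, 9.13 and 11.61 alone. FADS2 had 9.54, 7.30 and 10.94 in the co-cultures against 8.93, 7.74 and 11.44 alone. FADS1 was thus 1.41 higher in Mel 270 and lower in the other lines, while FADS2 was 0.61 higher in 92.1 and lower in Mel 270 and Mel 290 (-0.44 and -0.50).

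The sterol genes differed in opposite directions in 92.1 and Mel 270. Of the 17 measured genes of the mevalonate arm and of the squalene and sterol arm, 16 were lower in co-culture in 92.1, 13 were higher in Mel 270 and 16 were lower in Mel 290. Of all tested genes, 60.1% were lower and 39.9% higher in 92.1, 57.3% lower and 42.7% higher in Mel 270, and 49.2% lower and 50.8% higher in Mel 290. The median difference of the 17 was -0.56 in 92.1, 0.52 in Mel 270 and -0.18 in Mel 290, against -0.08, -0.06 and 0.01 over all tested genes. Among the 17, 12 were lower in 92.1 and higher in Mel 270, against 17.1% of all tested genes. With Mel 290 lower too the pattern held for 11 of the 17 and 15 of all 30 genes, against 8.03% of all tested genes. Each line had 1 array per culture, so these differences have no replicate check, and no test of a difference between the lines' responses could be made from 6 arrays.

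**Figure D2:**
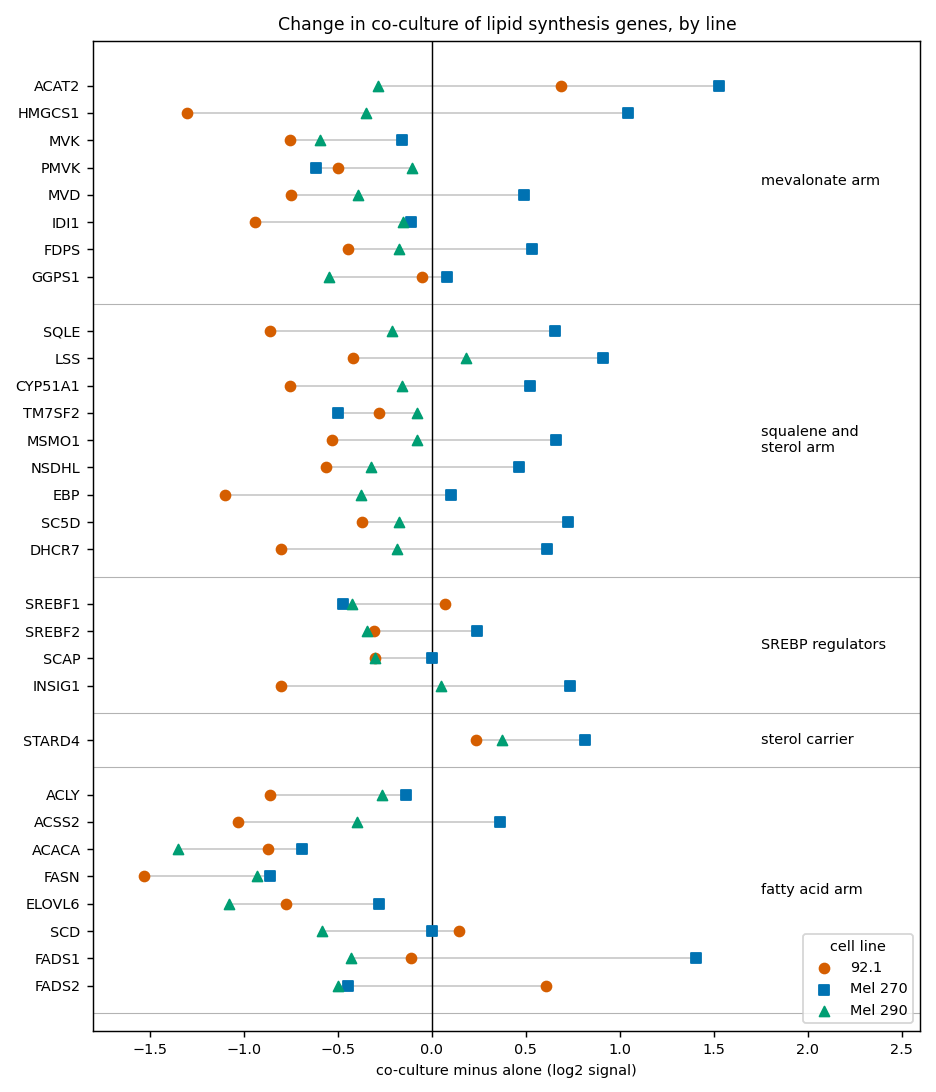
Difference in log2 signal, co-culture minus alone, for each of the 30 genes in 92.1 (circles), Mel 270 (squares) and Mel 290 (triangles), grouped by role from the mevalonate arm at the top to the fatty acid arm at the bottom. In most rows of the sterol arms the circle lies left of 0 and the square right of it, whereas FASN, ACACA and ELOVL6 have all 3 points left of 0.

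HMGCS1, the HMG-CoA synthase that feeds the mevalonate pathway, differed most between the lines. It had 10.50, 11.44 and 12.00 in the co-cultures of 92.1, Mel 270 and Mel 290, against 11.80, 10.39 and 12.35 alone. The co-culture was lower in 92.1 (-1.30) and Mel 290 (-0.35) and higher in Mel 270 (1.05), so that 92.1 was below Mel 270 in co-culture and above it when grown alone. Its mean difference was -0.20 ± 1.18 (limma adjusted p = 0.869). ACAT2, which joins 2 acetyl-CoA units ahead of HMGCS1, had 8.62, 9.0 and 10.11 in the co-cultures against 7.93, 7.47 and 10.39 alone. It was higher in 92.1 (0.69) as well as in Mel 270 (1.53), and of the 17 it was the 1 gene higher in 92.1. Between mevalonate and farnesyl diphosphate, the decarboxylase gene MVD had 8.13, 8.65 and 9.67 in the co-cultures against 8.87, 8.16 and 10.06 alone. MVD thus differed by -0.75, 0.49 and -0.39 in 92.1, Mel 270 and Mel 290, and FDPS, the farnesyl diphosphate synthase, by -0.45, 0.53 and -0.17. MVK, which phosphorylates mevalonate, had 7.13, 7.47 and 7.10 in the co-cultures against 7.89, 7.62 and 7.69 alone, with every co-culture below every culture alone. PMVK, the next kinase, had 7.33, 7.26 and 6.75 in the co-cultures against 7.83, 7.88 and 6.85 alone, and its groups overlapped through the low level of Mel 290 in both cultures. IDI1, the isomerase, had 10.32, 10.11 and 10.39 in the co-cultures against 11.25, 10.22 and 10.55 alone. MVK (-0.50 ± 0.31, adjusted p = 0.191), PMVK (-0.40 ± 0.27, adjusted p = 0.24) and IDI1 (-0.40 ± 0.47, adjusted p = 0.369) were lower in all 3 lines without passing in limma. GGPS1, which makes geranylgeranyl diphosphate for protein prenylation and not for sterols, had 7.83, 7.52 and 6.27 in the co-cultures against 7.88, 7.44 and 6.81 alone. It differed by at most 0.08 in 92.1 and Mel 270 and by -0.55 in Mel 290.

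Downstream of farnesyl diphosphate the lines parted in the same way. SQLE, the squalene epoxidase, had 11.45, 11.72 and 11.78 in the co-cultures of 92.1, Mel 270 and Mel 290, against 12.31, 11.07 and 11.99 alone. DHCR7, which carries out a last reduction to cholesterol, had 10.21, 10.58 and 11.53 in the co-cultures against 11.02, 9.97 and 11.71 alone. In both genes co-culture was lower in 92.1 (-0.86 for SQLE and -0.80 for DHCR7), higher in Mel 270 (0.66 and 0.61) and slightly lower in Mel 290 (-0.21 and -0.18). LSS, the lanosterol synthase, had 9.57, 10.56 and 10.50 in the co-cultures against 9.99, 9.65 and 10.31 alone. It was higher in Mel 270 (0.91) and Mel 290 (0.18) and lower in 92.1 (-0.42). CYP51A1, the lanosterol demethylase, was higher in Mel 270 (0.52) and lower in 92.1 (-0.76) and Mel 290 (-0.16). MSMO1, a sterol methyl oxidase, had 11.33, 11.65 and 12.51 in the co-cultures against 11.86, 10.98 and 12.59 alone. MSMO1 and the desaturase gene SC5D differed by -0.53 and -0.37 in 92.1, by 0.66 and 0.73 in Mel 270 and by -0.08 and -0.17 in Mel 290. The dehydrogenase gene NSDHL had -0.56, 0.47 and -0.32 in the same order of lines. The isomerase gene EBP had 8.99, 9.55 and 9.93 in the co-cultures against 10.09, 9.45 and 10.31 alone. It was lower in 92.1 (-1.10) and Mel 290 (-0.38) and close to even in Mel 270 (0.10). TM7SF2, a sterol reductase gene, had 7.18, 7.10 and 8.04 in the co-cultures against 7.46, 7.60 and 8.12 alone. It was the 1 gene of this arm that was lower in all 3 lines, with -0.28, -0.50 and -0.08 in 92.1, Mel 270 and Mel 290.

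The count of genes at least 1.5-fold apart showed the same split. In 92.1, 14 of 30 genes were at least 1.5-fold lower and 2 at least 1.5-fold higher in co-culture, against 10% and 7.8% of all tested genes. In Mel 270, 3 were lower and 10 were higher, against 11.4% and 10.7%. In Mel 290, 4 were lower and 0 were higher, against 8.83% and 4.77%. At least 2-fold apart were FASN, HMGCS1, EBP and ACSS2 in 92.1, all lower, ACAT2, FADS1 and HMGCS1 in Mel 270, all higher, and ACACA and ELOVL6 in Mel 290, both lower. Of all tested genes, 2.71% were at least 2-fold lower and 3.63% higher in 92.1, 4.52% lower and 5.29% higher in Mel 270, and 2.3% lower and 2.07% higher in Mel 290. HMGCS1, SQLE, DHCR7 and INSIG1 were at least 1.5-fold lower in 92.1 and at least 1.5-fold higher in Mel 270, which held for 0.369% of all tested genes. Across the 30 genes the differences in 92.1 and in Mel 270 correlated at r = 0.19, against r = 0.64 across all tested genes. The ranges were unlike: in 92.1 the differences spanned -1.53 to 0.69 for the 30 genes and -3.39 to 10.04 for all tested genes. The values of r for the 2 sets are therefore not directly comparable. The differences in 92.1 and in Mel 290 correlated as weakly across the 30 genes, at r = 0.22 against 0.50, while those in Mel 270 and in Mel 290 had r = 0.51 against 0.50. For these pairs in the same order, r was 0.23, 0.08 and 0.11 within the 17 sterol genes. Within the 8 genes of the fatty acid arm it was 0.31, 0.36 and 0.58. These values are across genes of the 6 arrays, each line enters 2 of the 3 pairs, and genes are not independent replicates.

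**Figure D3:**
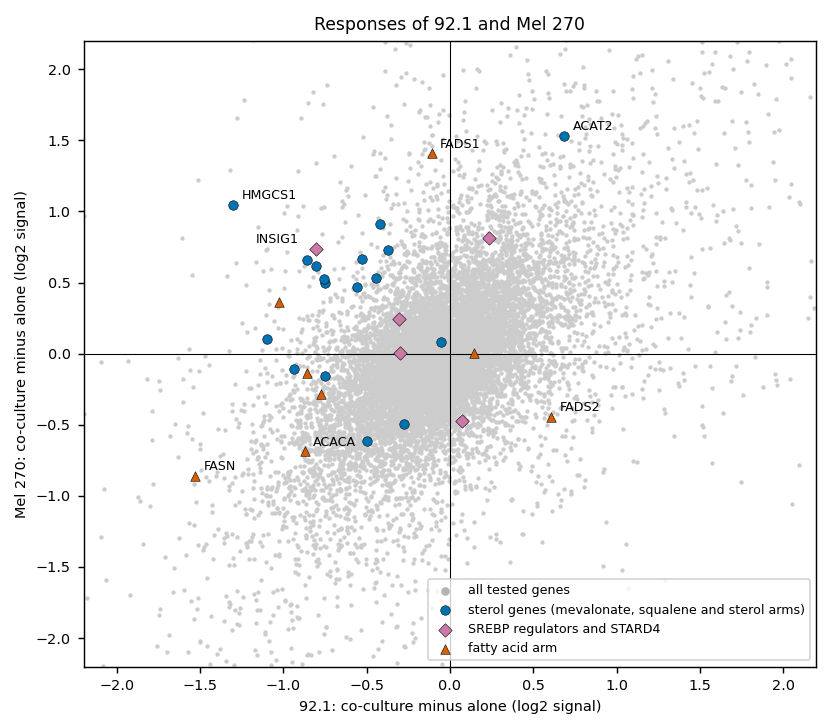
Difference in log2 signal, co-culture minus alone, in 92.1 (horizontal axis) and Mel 270 (vertical axis) for all tested genes (grey) and for the 30 lipid synthesis genes by role; 352 tested genes lie outside the axes of -2.2 to 2.2. Most sterol genes lie at the upper left, lower in 92.1 and higher in Mel 270, while FASN and ACACA lie at the lower left.

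Cell cycle genes and melanocyte genes also differed in size between the lines. All 8 cell cycle genes followed here, from MKI67 to MCM2, were lower in co-culture in all 3 lines, most so in Mel 270 (median -2.55), with medians of -1.08 in 92.1 and -0.91 in Mel 290, and none of them was called in limma (lowest adjusted p = 0.0665). Their summed log2 level was 52.8 to 69.4 in co-culture and 71.5 to 78.0 alone. The median of the 7 melanocyte markers differed by -0.35, -1.10 and -0.15 in these lines, with a summed level of 41.4 to 73.7 in co-culture and 43.5 to 79.3 alone. Mel 270, where the sterol genes were higher in co-culture, had the lowest median of both lists, and the part of these differences in the sterol result was not tested.

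The promoters of HMGCS1, MSMO1 and INSIG1 are shown as those of genes lower in 92.1 and higher in Mel 270, next to that of SREBF2, which held the letters of a sterol regulatory element, and that of ELOVL6, which was lower in all lines. Each is the 250 bases before a start site from RefSeq (GRCh38.p14), printed 5′ to 3′, with capitals for CCAAT, the box bound by NF-Y, which works with SREBP, and for the sterol regulatory element TCACNCCAC, both on either strand. HMGCS1 has 2 windows, and the one at chr5:43313413-43313662 on the minus strand is given because it holds CCAAT, which the other does not. MSMO1 is at chr4:165327419-165327668 on the plus strand, INSIG1 at chr7:155297628-155297877 on the plus strand, SREBF2 at chr22:41832855-41833104 on the plus strand and ELOVL6 at chr4:110198616-110198865 on the minus strand.
HMGCS1: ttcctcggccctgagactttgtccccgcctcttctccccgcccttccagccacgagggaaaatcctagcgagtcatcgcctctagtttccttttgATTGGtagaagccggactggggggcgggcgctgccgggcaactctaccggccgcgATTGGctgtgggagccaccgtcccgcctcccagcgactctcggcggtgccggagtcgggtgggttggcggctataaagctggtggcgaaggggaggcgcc
MSMO1: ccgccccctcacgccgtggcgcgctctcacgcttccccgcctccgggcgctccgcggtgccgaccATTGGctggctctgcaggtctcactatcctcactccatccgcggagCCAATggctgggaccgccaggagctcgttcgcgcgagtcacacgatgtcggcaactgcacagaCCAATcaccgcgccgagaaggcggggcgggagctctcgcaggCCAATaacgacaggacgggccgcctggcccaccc
INSIG1: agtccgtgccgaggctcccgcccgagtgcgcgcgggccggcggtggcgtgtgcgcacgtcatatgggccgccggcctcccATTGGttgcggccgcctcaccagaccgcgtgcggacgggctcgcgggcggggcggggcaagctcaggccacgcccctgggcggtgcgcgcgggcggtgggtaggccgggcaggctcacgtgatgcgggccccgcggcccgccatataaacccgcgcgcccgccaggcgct
SREBF2: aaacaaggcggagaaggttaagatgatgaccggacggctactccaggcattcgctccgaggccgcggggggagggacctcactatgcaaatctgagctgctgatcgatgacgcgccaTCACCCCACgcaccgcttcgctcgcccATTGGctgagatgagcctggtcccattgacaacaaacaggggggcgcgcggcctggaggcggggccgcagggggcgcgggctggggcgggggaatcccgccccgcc
ELOVL6: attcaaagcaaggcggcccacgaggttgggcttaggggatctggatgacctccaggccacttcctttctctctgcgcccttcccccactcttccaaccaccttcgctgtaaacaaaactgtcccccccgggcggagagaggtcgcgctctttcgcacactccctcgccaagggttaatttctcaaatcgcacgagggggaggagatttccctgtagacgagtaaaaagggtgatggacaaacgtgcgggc

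RefSeq windows from 250 bases before to 50 after a start site were matched for 28 of the 32 genes. The word CCAAT stood in a window of 14 of 16 sterol genes and of 5 of 7 fatty acid genes, against 39.7% of all 27305 genes with a window. In the windows printed, MSMO1 had 4 copies, HMGCS1 2, INSIG1 and SREBF2 1 each and ELOVL6 none. ELOVL6 does not stand for the other genes lower in all lines. Of these, MVK had 5 copies, ACLY 2 in each window and TM7SF2 1. IDI1 and ACACA held copies in some of their windows, PMVK had none and FASN had no matched window. CYP51A1, which had the same directions as MSMO1 in the lines, had none. A link between CCAAT and the direction of response was not tested. TCACNCCAC stood in the window of SREBF2 alone among the 28 genes, as TCACCCCAC starting at position -133 from the start site, against 1.39% of all genes. The Sp1 word GGGCGG, which is not marked, was found in 27 of 28 genes and in 48.3% of all genes. Matches of different words were counted separately where they shared letters. A word that matches is not a shown binding site, and its absence from a window says nothing of the factor.

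Among the regulators of the pathway, SREBF1, SREBF2 and SCAP differed by at most 0.47 in any line. INSIG1, itself a target of SREBP, had 9.70, 8.82 and 12.04 in the co-cultures of 92.1, Mel 270 and Mel 290, against 10.50, 8.09 and 11.99 alone. It was lower in 92.1 (-0.80), higher in Mel 270 (0.74) and nearly even in Mel 290 (0.05), with a mean of -0.01 ± 0.77 (limma adjusted p = 0.995). SREBF2 differed by -0.31, 0.24 and -0.34 and SCAP by -0.30, 0.00 and -0.30. SREBF1 had 8.87, 8.12 and 7.92 in the co-cultures against 8.80, 8.60 and 8.34 alone. It was lower in Mel 270 (-0.47) and Mel 290 (-0.42) and nearly even in 92.1 (0.07), with a mean of -0.28 ± 0.30 (limma adjusted p = 0.427). STARD4, a carrier that moves cholesterol between membranes and is a target of SREBP2, had 8.89, 9.53 and 10.12 in the co-cultures against 8.65, 8.71 and 9.75 alone. It was the 1 gene of the 30 that was higher in all 3 lines, at 0.47 ± 0.30, with limma adjusted p = 0.206 and groups that overlapped.

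The levels of several members differed between the lines in either culture. Each line was set against the mean of the other lines in limma, with culture as a covariate. The 2 arrays of a line are a co-culture and a culture alone, not repeats, so the spread in that fit holds the unequal responses of the lines. Mel 290 differed in 11 of 30 genes, 9 higher and 2 lower, against 11.3% and 14.9% of all tested genes. Mel 270 differed in 3, all lower, where 7.62% of all tested genes were called lower and 6.83% higher, and 92.1 in 3, 2 higher and 1 lower, against 9.73% and 6.18%. These counts changed with single arrays, each left out in turn, which left 1 array of its line. Over all tested genes, each line had fewer calls when either of its own arrays was left out. Among the 30 genes, 92.1 and Mel 290 likewise had the fewest calls when either of their own arrays was left out. Both Mel 270 and Mel 290 had the most without the Mel 270 co-culture, and 92.1 had the most without Mel 270 grown alone.

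FADS2 and INSIG1 had the widest gaps between lines. FADS2 was 2.82 higher in Mel 290 than in the mean of the other lines (SE 0.27, adjusted p = 0.0036) and differed by -2.69 in Mel 270 (SE 0.27, adjusted p = 0.00778). Its 6 values did not overlap between lines, with Mel 290 highest and Mel 270 lowest in both cultures. INSIG1 was 2.73 higher in Mel 290 (SE 0.32, adjusted p = 0.00579) and differed by -2.60 in Mel 270 (SE 0.32, adjusted p = 0.0128). Without either Mel 290 array its Mel 290 call was lost in limma (adjusted p = 0.0598 without the array grown alone and 0.0643 without the co-culture), at a difference of 2.78 and 2.69. Its Mel 270 call was lost without the Mel 290 co-culture (adjusted p = 0.0559). ELOVL6 was lowest in Mel 270, at -2.15 against the others (SE 0.20, adjusted p = 0.00627), and higher in 92.1 (1.40, adjusted p = 0.0167) and Mel 290 (0.75, adjusted p = 0.048).

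In Mel 290 ACAT2 (2.00, adjusted p = 0.0189), MVD (1.41, adjusted p = 0.0215), DHCR7 (1.17, adjusted p = 0.0442), MSMO1 (1.09, adjusted p = 0.0377), STARD4 (0.99, adjusted p = 0.0157) and TM7SF2 (0.75, adjusted p = 0.0229) were higher in limma as well. PMVK (-0.77, adjusted p = 0.0262) and GGPS1 (-1.13, adjusted p = 0.0126) were lower there. In 92.1 GGPS1 was higher (0.84, adjusted p = 0.0388) and STARD4 lower (-0.76, adjusted p = 0.0451). Each call in 92.1 was lost without either 92.1 array. The calls of ELOVL6 and PMVK in Mel 290 and of STARD4 in 92.1 were each lost in 5 of the 6 fits that left out 1 array. Without the Mel 290 array grown alone, FADS2 and GGPS1 were the 2 calls left for Mel 290. Without its co-culture they were FADS2 and ACAT2. Mel 290 also differed from the other lines in the melanocyte markers, with a median of -5.71 over 7 genes, and line, melanocyte marker level and degree of confluence cannot be told apart here.

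**Figure D4:**
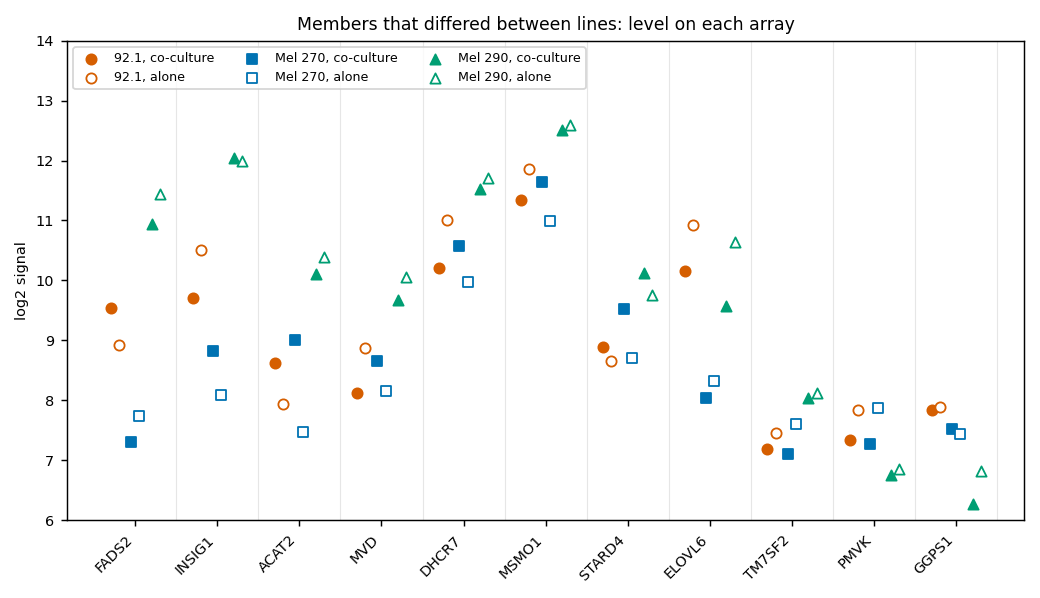
Log2 signal on each array of the 11 members called in at least 1 line against the others, for 92.1 (circles), Mel 270 (squares) and Mel 290 (triangles), co-culture filled and alone open. The Mel 290 points lie above those of the other lines for FADS2, INSIG1, ACAT2, MVD, MSMO1, STARD4, DHCR7 and TM7SF2, and below them for PMVK and GGPS1; heights are comparable within a gene only.

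Related genes outside the set were taken from 4 lists of 43 genes, of which 35 were tested, and none passed in limma in either direction. The list of sterol handling and SREBP processing had 9 tested genes, 1 higher and 0 lower at an unadjusted p under 0.05, a level that 7.02% of all tested genes passed as higher and 13% as lower. That gene was NPC1, which exports cholesterol from lysosomes, at 0.45 ± 0.15 and higher in 3 of 3 lines (adjusted p = 0.161). ERLIN2, which acts in the breakdown of HMG-CoA reductase, differed by -0.46 ± 0.62 (adjusted p = 0.397). INSIG2 followed the order of the sterol genes, with -0.46 in 92.1, 1.42 in Mel 270 and 0.26 in Mel 290. Among 6 oxysterol, LXR and efflux genes 2 were higher and 0 lower at that level, beside the same 7.02% and 13%. ABCA1, the exporter of cholesterol to apolipoproteins, was 0.83 ± 0.49 higher (adjusted p = 0.134), and CYP7B1, an oxysterol hydroxylase, 0.44 ± 0.33 (adjusted p = 0.24). CYP27A1, the sterol 27-hydroxylase, differed by 0.63 ± 0.94 (adjusted p = 0.418). CH25H, which makes 25-hydroxycholesterol and was named after its values were seen, was below the filter in mean level and differed by -0.03 ± 0.36.

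Of 13 other fatty acid and glycerolipid genes 1 was higher and 3 lower at an unadjusted p under 0.05, against 7.02% and 13% of all tested genes. ACACB, the second acetyl-CoA carboxylase, differed by -0.80 ± 0.31 (adjusted p = 0.1), GPAM, which starts glycerolipid synthesis, by -0.72 ± 0.18 (adjusted p = 0.0902) and the citrate carrier gene SLC25A1 by -0.45 ± 0.33 (adjusted p = 0.24). Each was lower in 3 of 3 lines. ELOVL7, an elongase, was 0.75 ± 0.45 higher (adjusted p = 0.142). SLC25A1 and the acyl-CoA synthetases ACSL1 and ACSL4 were named after their values were seen. ACSL1 and ACSL4 were 1.66 and 2.19 higher in Mel 270 and differed by -1.28 and -0.26 in 92.1. Of 7 fatty acid oxidation genes 0 were higher and 3 lower at that level, against the 7.02% and 13% above. These were HADHA of the trifunctional protein (-0.71 ± 0.19, adjusted p = 0.0906), the dehydrogenase gene ACADM (-0.58 ± 0.22, adjusted p = 0.126) and CPT1A, the gate to mitochondrial oxidation (-0.50 ± 0.31, adjusted p = 0.192). Each of these oxidation genes was lower in 3 of 3 lines.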

How the data were processed

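Total RNA of 3 established uveal melanoma lines was hybridised to 6 arrays. The authors' deposited values are log2 signals per probe set made with Affymetrix Expression Console 1.2.0.20, per the submitters' processing notes. How they were background-corrected, summarized and normalized is not given in the sources used here. Values ranged from 1.49 to 13.89 with medians of 6.63 to 6.69 and were used as deposited, and the number of arrays limits the precision. An array annotation named 19460 of 33297 probe sets by 1 symbol, 1754 by several and left the others unnamed. Symbols were updated through a RefSeq gene table (GRCh38.p14, 19429 matched), and the probe set with the highest mean stood for a gene. Genes with a mean at or above the 25th percentile of annotated probe sets, 5.80, were tested.

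limma 3.58.1 in R 4.3.3 (lmFit and eBayes) compared co-culture with alone, with cell line as a block since each line is in both groups, and Benjamini-Hochberg adjustment over 13808 genes. The arrays of a line deviated together from their group means (r of 0.789, 0.741 and 0.832). The fit left 2 residual degrees of freedom plus a prior of 3.10. P-values measure how far the co-culture minus alone difference varied between lines, moderated by that prior, and not the spread between repeat cultures. An exact permutation test within 3 pairs cannot go below p = 0.25 and was not run. Full values were given for members called in a line, the 6 with the largest mean and the 6 with the most unequal differences and the 5 highest and 5 lowest of each line, and other lists by their 3 largest mean differences. Lists and members were chosen with earlier results of these data known. The fit was tested on simulated data. Alternatives were other filters and normalizations, low values raised to the filter level, averaged probe sets, fits without block or culture term and left-out arrays. Motifs were searched in Python 3.11.15.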

Additional observations from a re-analysis of the deposited data

Results flagged for a closer look

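HMGCS1, SQLE, DHCR7 and INSIG1 differed in opposite directions in 92.1 and Mel 270, each by at least 1.5-fold. The difference in Mel 270 minus that in 92.1 was 2.35 for HMGCS1, 1.52 for SQLE, 1.42 for DHCR7 and 1.54 for INSIG1 on the log2 scale. This contrast of lines was not tested, because each line had 1 array per culture.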

How the results depend on the processing

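Directions and calls were recomputed under each alternative. In co-culture 0 of 30 genes was called in every setting run, also without the replicate block (0 calls) and with each line left out. The lowest limma adjusted p was 0.0646 for FASN and 0.0716 for ACACA, both with the filter at the median, and the mean difference of FASN lay between -1.23 and -0.90 and that of ACACA between -1.11 and -0.78 with each line left out. INSIG1, near 0 as reported, turned to 0.0782 with cyclic loess and 0.0182 with quantile normalization, and FDPS to 0.0428 with cyclic loess. Leaving out a line turned the sign of genes that were uncalled throughout, with ranges of -0.83 to 0.35 for HMGCS1, -0.57 to 0.0516 for MVD, -0.31 to 0.18 for FDPS, -0.30 to 0.0139 for GGPS1, -0.53 to 0.22 for SQLE, -0.12 to 0.55 for LSS, -0.46 to 0.18 for CYP51A1, -0.30 to 0.29 for MSMO1, -0.44 to 0.0719 for NSDHL, -0.27 to 0.28 for SC5D, -0.49 to 0.21 for DHCR7, -0.38 to 0.39 for INSIG1, -0.29 to 0.0744 for SCD, -0.27 to 0.65 for FADS1 and -0.47 to 0.0829 for FADS2. The calls between lines fell to 0 in 92.1 and 6 in Mel 290 without the culture term, and ranged from 0 to 5 in 92.1, 2 to 9 in Mel 270 and 2 to 15 in Mel 290 with an array left out; the cause was not tested. Without the culture term, calls over all tested genes fell too, to 871 in 92.1, 872 in Mel 270 and 2279 in Mel 290. With that term they were 2197, 1995 and 3615 in the same order of lines. The medians and the 1.5-fold counts within each line come from differences of 2 arrays, and all 30 genes passed each filter. The other filters therefore could not change them, and averaging probe sets touched CYP51A1 alone. Under the other normalizations they stayed within the limits set for them, the spread between the lines and 1.5 times the count. The sterol medians of -0.56, 0.52 and -0.18 in 92.1, Mel 270 and Mel 290 make that spread wide, so this was a weak check. The 6 arrays and 1 array per line and culture limit all of these values.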

Other observations

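CYP51A1 was the 1 member with several probe sets. Its second one was likewise lower in 92.1 (-0.87) and Mel 290 (-0.28) and higher in Mel 270 (0.48), at a mean log2 signal of 11.14.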
